A study of Mus musculus with 6 samples.

Results

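The collagens that do not form fibrils were examined in muscle stem cells (MuSCs) with and without *Sirt6*. The gene set comprised the protein-coding genes of the table whose symbol has the form of a collagen chain (Col, a type number, a and a chain number), without the 10 chains of fibril-forming collagens. This left 32 of the 42 collagen chain genes, among 25166 genes in all. *Col24a1*, which is counted with the fibrillar collagens by its domain structure, stayed in the set because the rule did not remove it. The cells came from 3 Sirt6mKO and 3 control samples on a C57BL/6 background. Sirt6mKO mice (Pax7-ICNCre positive, Sirt6 fl/fl) carry a constitutively active Cre recombinase under the Pax7 promoter, which removes the floxed exons 4 to 6 of *Sirt6* in Pax7-expressing cells and all their descendants. *Sirt6* encodes a deacetylase of histones that uses NAD+. The labels call the controls wild type, whereas the study's legend describes Cre-negative Sirt6 fl/fl mice and names male mice of 12 weeks for its panels. Floxed alleles would then be shared by both groups. MuSCs were sorted by FACS after removal of cells positive for Sca1, CD45 or CD31, by Integrin-alpha7 and CD34 or by a fluorescent reporter, and 1 library was made from the 100 to 200 cells of each sample.

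Collagens are trimers of alpha chains that wind around each other over repeats rich in glycine and proline. The fibrillar types build the cables of tendon and interstitial tissue. The remaining types build other structures. Type IV collagen forms the sheet-like network of basement membranes, to which type XV and type XVIII collagen (the multiplexins) attach. Type VI collagen assembles from different alpha chains into beaded filaments that lie between the basal lamina and the interstitium, and lesions in its genes cause muscular dystrophies in humans. The FACIT collagens (types IX, XII, XIV, XVI, XIX, XX and XXII among others) sit on the surface of fibrils, the short-chain collagens VIII and X form lattices, and the types XIII, XVII, XXIII and XXV span the plasma membrane. MuSCs lie under the basal lamina of the myofiber, where collagens are part of their niche.

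No unit is given for the deposited whole numbers, called signal here. Their spacing was read as that of reads after division by 1 size factor per library and rounding. All numbers of reads given below are estimates that rest on this reading. Total signal was between 2272307 and 2369973 per library. The rebuilt library sizes differed more, from 1267027 reads in control replicate 3 and 1901872 in control replicate 1 to 3209958 in control replicate 2, with 2471637 to 3176380 in the Sirt6mKO libraries. Each read added 1.792 to the signal in control replicate 3 and 0.729 to 1.23 elsewhere. *Sirt6* itself had values of 19, 20 and 13 in Sirt6mKO replicates 1 to 3 against 18, 17 and 20 in the controls (log2 fold change -0.10 ± 0.29 SE, limma adjusted p = 0.91), so that the deletion could not be seen in the reads of the whole gene and the labels were not checked by it. MuSC markers were abundant in every library, with a summed signal of 10 genes of 13617 to 14132 in Sirt6mKO and of 15530 to 16825 in the controls. Of these genes 4 were lower in every Sirt6mKO library than in any control and 1 was higher, against 10.1% and 11.1% of all genes tested. *Pax7* fell (1841, 2307 and 1810 against 4066, 3449 and 3150, log2 fold change -0.84 ± 0.13 SE, limma adjusted p = 0.0041), and *Cd34*, a marker used in the sort, rose (0.60 ± 0.14, adjusted p = 0.031, and 0.036 to 0.15 without 1 library). Control replicate 3 stood apart. It held the lowest value of the 6 libraries, without a tie, for 12 of the 23 collagen genes tested, against 21.2% of all genes tested. For the non-fibrillar genes whose log2 fold change is given and moved by 1.5 times or more without it, or whose call was lost, that value is given as well. In bulk samples such as these, fewer cells of a type and less RNA per cell cannot be told apart.

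The order of the genes in the genome bears on how the chains can be compared. *Col4a1* and *Col4a2* lie head to head on chromosome 8 and their annotated first exons overlap by 22 bases, *Col4a3* and *Col4a4* lie head to head on chromosome 1 at a distance of 71 bases, and *Col4a5* and *Col4a6* on the X chromosome at 1308 bases. *Col6a1* and *Col6a2* are neighbours on chromosome 10, 85.2 kb apart, with *Col18a1* 326.0 kb beyond, while *Col6a3* lies on chromosome 1. Of the 32 genes, 26 had a promoter in the RefSeq table of GRCm38.p6, of 300 bases with 250 before the start of the gene. The sequences upstream of the 3 classical collagen VI genes are shown because these chains are made for 1 protein but differed in the data. A stretch just upstream of *Col4a2*, inside the annotated 5′ end of *Col4a1*, is shown because the starts of both genes overlap next to it. Sequences are those of RefSeq, 5′ to 3′ on the strand of the gene, and end before the gene start. Capitals mark the 4 motifs searched on both strands, none of which overlapped another. They were the GC box with the letters GGGCGG, the box named CCAAT after its letters, the TATA box with TATAAA and the AP-1 site with TGACTCA.
Col6a1, chr10:76726169-76726294, minus strand: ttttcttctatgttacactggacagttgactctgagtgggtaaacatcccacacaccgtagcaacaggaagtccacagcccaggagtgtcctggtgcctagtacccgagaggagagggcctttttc
Col6a2, chr10:76623631-76623880, minus strand: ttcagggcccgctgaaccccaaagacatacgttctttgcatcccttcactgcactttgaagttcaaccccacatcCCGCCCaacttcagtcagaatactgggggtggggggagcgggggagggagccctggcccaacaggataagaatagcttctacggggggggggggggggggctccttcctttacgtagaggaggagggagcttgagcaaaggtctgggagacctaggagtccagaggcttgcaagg
Col6a3, chr1:90843972-90844221, minus strand: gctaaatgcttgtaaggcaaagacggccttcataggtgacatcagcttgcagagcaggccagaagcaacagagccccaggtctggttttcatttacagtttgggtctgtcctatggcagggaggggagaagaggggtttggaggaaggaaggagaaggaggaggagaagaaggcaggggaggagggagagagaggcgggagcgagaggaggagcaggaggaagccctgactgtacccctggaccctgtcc
Col4a2, chr8:11312763-11312792, plus strand: gaggagctccCCAATttgttggcgctgccc
In the 300-base windows, *Col6a2* had 1 GC box, 175 bases before the start used here. RefSeq lists a second start of *Col6a2* further downstream, whose window (chr10:76623355-76623654) held 2 GC boxes and is not shown. *Col6a1* had an AP-1 site 90 bases before its RefSeq start, which lies downstream of the start in the deposited table and is not shown. *Col6a3* had none of the 4 motifs. The windows of *Col4a1* and *Col4a2* share 78 bases, and the CCAAT box shown lies 32 bases before the start of *Col4a2*. Over all 32851 promoters of the table, 35.7% held a GC box, 37.4% a CCAAT box, 13.6% a TATA box and 5.2% an AP-1 site, so that all but the last are common. The windows of the collagen IV pair had a GC content of 74.0 and 73.7% with 37 and 33 CpG dinucleotides, and those of *Col6a1*, *Col6a2* and *Col6a3* of 57.3, 56.7 and 56.3% with 3, 6 and 3.

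MuSCs expressed a few of these genes at a high level and most of them at a low one. *Col4a1*, *Col15a1*, *Col6a1*, *Col4a2* and *Col6a2* together made up 83.9 to 88.1% of the signal of all 32 genes in each library. By family, type IV chains took 43.8 to 49.4% of it, type VI chains 20.7 to 26.9%, the multiplexins 19.6 to 23.6% and the FACIT chains 5.4 to 8.33%. The transmembrane chains held 0.447 to 0.655%, the short-chain collagens 0.105 to 0.324%. All 32 genes held 49.4 to 51.5% of the signal of collagen chains and 0.394 to 0.651% of the total signal. Because long genes collect more reads, levels between genes were compared per kilobase of merged exons. The mean signal per kilobase over the 6 libraries was 602.6 ± 116.0 (SD, n = 6) for *Col4a1*, 473.1 ± 61.5 for *Col6a1*, 381.2 ± 69.6 for *Col15a1*, 211.7 ± 49.1 for *Col4a2* and 117.6 ± 32.6 for *Col6a2*. *Col19a1* followed with 68.7 ± 9.33, *Col18a1* with 54.8 ± 13.5 and *Col16a1* with 17.8 ± 4.59. By the intervals of mean ± SD, *Col4a1* and *Col6a1* overlapped in this order, as did *Col6a1* and *Col15a1*, and *Col19a1* and *Col18a1*. The other neighbours among the 8 did not. *Col6a3*, the third of the classical collagen VI chains, reached 2.80 ± 3.29 per kilobase and ranked 17. With the length of the longest transcript instead of merged exons, *Col6a2* rose to 199.3 per kilobase, close to *Col4a2* with 217.2. By that length *Col26a1* rose from 12.5 to 36.7 and took rank 8, ahead of *Col16a1* with 23.1 and rank 9.

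**Figure D1:**
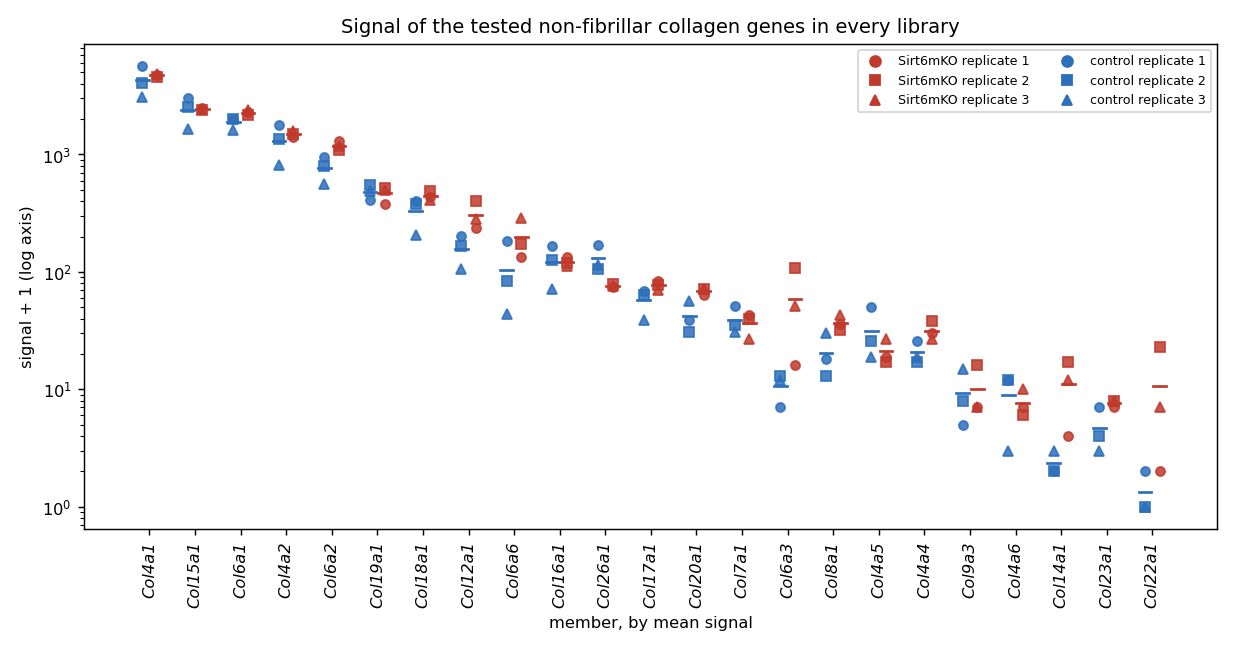
Signal + 1 on a log axis (y) of the 23 tested non-fibrillar collagen genes (x, by mean signal) in each of the 3 Sirt6mKO (red) and 3 control libraries (blue), with the symbol shape giving the replicate number and a bar for the group mean. Control replicate 3 (blue triangles) is the lowest library for 12 genes, among them the 5 with the highest signal, and Sirt6mKO replicate 2 (red squares) is far above the other libraries for *Col6a3* (107).

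To find which of the genes differed between Sirt6mKO and control MuSCs, the 23 with a mean signal of at least 5 were tested with limma on log2(signal + 1) together with all other such genes, 14227 in total. At an adjusted p of at most 0.05 and a change of at least 2-fold, the thresholds of the study, *Col6a3* rose and no gene fell, where 1.57% of all genes rose and 1.02% fell (2.59% in either direction). For the direction without a call, 1 gene had an unadjusted p under 0.05, and limma voom on the rebuilt reads called 0 as well. At the adjusted p alone, *Col6a2*, *Col6a3* and *Col12a1* rose and *Col26a1* fell, which is 17.4% of the 23 genes against 4.52% of all genes. Without the filter on low values, where p-values were adjusted over all 25166 genes, none of these 4 passed (adjusted p = 0.067 to 0.089). The log2 fold change was above 0 for 18 genes and below 0 for 5, with a median of 0.47 against 0.00 over all genes tested. For 10 genes every Sirt6mKO library lay above every control library and for 1 below, where the groups did not overlap in this way for 11.1% and 10.1% of all genes. Without control replicate 3 these counts were 10 and 3, against 16% of all genes higher and 16% lower. Of the 23 genes, 3 (*Col14a1*, *Col22a1* and *Col23a1*) had a control mean under 5 and were tested only through their Sirt6mKO values, so they could enter these counts only by being higher in Sirt6mKO.

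**Figure D2:**
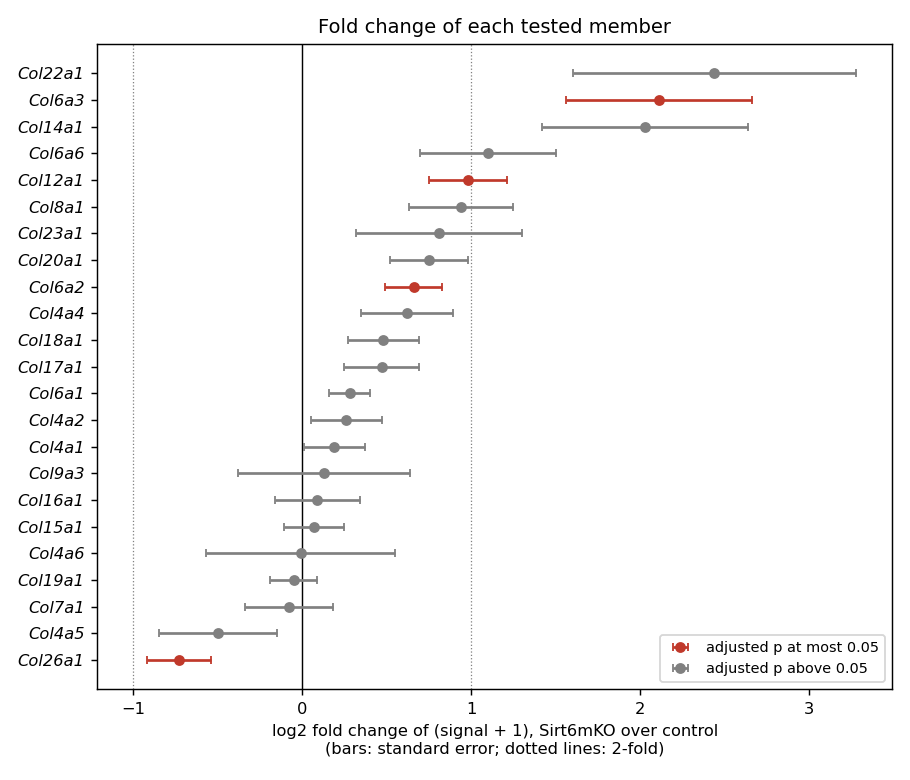
Log2 fold change of (signal + 1) in Sirt6mKO over control (x) for the 23 tested genes (y), with bars for the standard error, dotted lines at 2-fold and red for an adjusted p of at most 0.05. *Col6a3* at 2.11 is the only red point past 2-fold, *Col12a1* (0.98) and *Col6a2* (0.66) lie above 0 and *Col26a1* (-0.73) below.

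All 4 collagen VI genes of the table had a higher mean in Sirt6mKO MuSCs, and 2 of them passed the adjusted p. *Col6a1*, which encodes the alpha 1 chain found in every collagen VI trimer, had a signal of 2284, 2147 and 2376 in Sirt6mKO replicates 1 to 3 and of 2005, 2010 and 1612 in control replicates 1 to 3. The groups did not overlap, but the change was small (log2 fold change 0.28 ± 0.12 SE, limma adjusted p = 0.23, and 0.18 without control replicate 3). *Col6a2* (ENSMUSG00000020241, chr10:76595762-76623630), the alpha 2 chain, rose from 954, 798 and 554 in the controls to 1295, 1084 and 1190 in Sirt6mKO. Its mean was 1189.7 ± 105.5 against 768.7 ± 201.6 (SD, n = 3 each), every Sirt6mKO library was above every control, and the log2 fold change was 0.66 ± 0.17 SE (limma adjusted p = 0.044). The call rested on all libraries but control replicate 1. The adjusted p was 0.22, 0.11 and 0.11 without Sirt6mKO replicate 1, 2 or 3, 0.091 without control replicate 2 and 0.088 without control replicate 3, where the log2 fold change was 0.44.

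*Col6a3* (ENSMUSG00000048126, chr1:90765923-90843971) encodes the long alpha 3 chain that completes the classical trimer. It was low in the controls, with a signal of 6, 12 and 11, and reached 15, 107 and 50 in Sirt6mKO replicates 1 to 3. Every Sirt6mKO library was above every control, yet replicate 1 (15) was close to the highest control (12), and the 3 Sirt6mKO libraries differed from each other more than replicate 1 did from the controls. The mean was 57.3 ± 46.4 against 9.67 ± 3.21 (SD, n = 3 each) and the log2 fold change 2.11 ± 0.55 SE (limma adjusted p = 0.047), on 5, 16 and 6 reads in the controls. The adjusted p was 0.23 without Sirt6mKO replicate 2, where the log2 fold change was 1.47, 0.14 without Sirt6mKO replicate 3, and 0.13, 0.094 and 0.084 without control replicate 1, 2 or 3. It was 0.012 without Sirt6mKO replicate 1, 0.18 with limma voom on the rebuilt reads and 0.12 with robust empirical Bayes. *Col6a6*, a chain that can take the place of alpha 3, is given here although it was chosen after its values were seen. It had 133, 171 and 288 in Sirt6mKO libraries against 182, 83 and 43, with overlapping groups and a log2 fold change of 1.10 ± 0.40 SE (limma adjusted p = 0.17). Leaving out 1 library moved this change from 0.60 without control replicate 3 (adjusted p = 0.39) to 1.63 without control replicate 1 (0.015), the only such fit in which it passed. Per kilobase, *Col6a6* exceeded *Col6a3* in all 6 libraries, by 2.09-fold in Sirt6mKO replicate 2 and by 39.6-fold in control replicate 1.

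Type IV chains, the most abundant family, did not pass the test in either direction. An unadjusted p under 0.05 was reached by 1 of the 5 that were tested, and limma voom called 0. *Col4a1* and *Col4a2* encode the 2 chains of the ubiquitous network. *Col4a1* had a signal of 4707, 4592 and 4871 in Sirt6mKO and of 5665, 4074 and 3078 in the controls. *Col4a2* had 1414, 1480 and 1590 against 1766, 1347 and 810. For both, the Sirt6mKO libraries lay close together inside the range of the controls, with control replicate 1 highest and control replicate 3 lowest of all. The log2 fold changes were 0.19 ± 0.18 SE (limma adjusted p = 0.65) and 0.26 ± 0.21 (0.58), and without control replicate 3 they were -0.02 and -0.05. The head-to-head pair of *Col4a4* and *Col4a3*, which build the network of kidney glomeruli, was weakly represented. *Col4a4* had a signal of 29, 37 and 26 in Sirt6mKO and of 25, 16 and 18 in the controls, without overlap (log2 fold change 0.62 ± 0.27 SE, limma adjusted p = 0.25). *Col4a3* had 0, 2 and 1 against 0, 1 and 0, at or under 3 reads in every library, and was not tested. *Col4a5* and *Col4a6*, the X-linked pair, were low as well. *Col4a5* had 18, 16 and 26 in Sirt6mKO libraries against 49, 25 and 18 (log2 fold change -0.50 ± 0.35 SE, limma adjusted p = 0.51, and -0.81 without control replicate 3), and those of *Col4a6* were 6, 5 and 9 against 11, 11 and 2. Both pairs of groups overlapped.

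The multiplexins carry a C-terminal fragment known for inhibiting blood vessel growth, called endostatin in type XVIII. *Col15a1* had a signal of 2492, 2389 and 2434 in Sirt6mKO and of 3016, 2546 and 1646 in the controls. As for *Col4a1*, the Sirt6mKO values lay within the wider range of the controls (log2 fold change 0.07 ± 0.18 SE, limma adjusted p = 0.90), and the fold change was -0.18 without control replicate 3. *Col18a1* had 433, 485 and 406 against 402, 376 and 206. Here the groups were separate by a narrow margin, with 406 in the lowest Sirt6mKO and 402 in the highest control library (log2 fold change 0.48 ± 0.21 SE, limma adjusted p = 0.23), and without control replicate 3 the change was 0.18.

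Among the FACIT chains, *Col12a1* passed the adjusted p. Type XII collagen is laid down on fibrils of tendon, fascia and muscle, and its loss causes a myopathy with lax joints. *Col12a1* (ENSMUSG00000032332, chr9:79598991-79718831) had a signal of 235, 404 and 282 in Sirt6mKO and of 203, 164 and 104 in the controls. Means were 307.0 ± 87.2 and 157.0 ± 49.9 (SD, n = 3 each), the groups did not overlap, and the log2 fold change of 0.98 ± 0.23 SE fell just short of 2-fold (limma adjusted p = 0.033). Left-out libraries moved this p to 0.068, 0.18 and 0.075 (Sirt6mKO replicates 1 to 3), 0.016, 0.080 and 0.089 (control replicates 1 to 3). The call therefore stood without control replicate 1 only, and the p was 0.096 with robust empirical Bayes. *Col20a1* had 62, 71 and 71 against 38, 30 and 56, separate but without a call (log2 fold change 0.75 ± 0.23 SE, limma adjusted p = 0.094). Without control replicate 3, its highest control, the change was 0.99 with an adjusted p of 0.024, and limma voom on all libraries gave 0.039. *Col19a1*, the most abundant FACIT gene, which is known from the basement membrane zone of muscle and nerve, differed least, with 381, 513 and 502 in Sirt6mKO libraries against 407, 544 and 491 (log2 fold change -0.05 ± 0.14 SE, limma adjusted p = 0.91, and -0.03 without control replicate 3). *Col16a1* had 133, 117 and 112 against 165, 125 and 70 (log2 fold change 0.09 ± 0.25, limma adjusted p = 0.90, and -0.25 without control replicate 3). *Col9a3* ranged from 4 to 15 over all libraries with overlapping groups, and *Col9a1* and *Col9a2*, with at most 2, were not tested.

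The remaining FACIT genes, *Col14a1* and *Col22a1*, were at or under 3 reads in all 3 controls. *Col14a1*, whose protein binds fibrils in tendon and skin, had a signal of 3, 16 and 11 in Sirt6mKO and of 1, 1 and 2 in the controls. Its mean was at least 2.67-fold higher in Sirt6mKO than a floor of 3 reads per control library, and the limma adjusted p was 0.089. *Col22a1*, whose protein marks the myotendinous junction, is named after its values were seen. It had 1, 22 and 6 against 1, 0 and 0, at least 2.58-fold higher by the same floor, with a limma adjusted p of 0.14 and with replicate 1 of Sirt6mKO itself at 1. In both genes, as in *Col6a3* and *Col12a1*, Sirt6mKO replicate 2 had the highest value, replicate 3 the next and replicate 1 the lowest of the 3. This order was not limited to genes that were higher in Sirt6mKO. *Col8a2*, *Col4a3*, *Col19a1* and *Col26a1* had it too, and no other of the 32 genes did. A given order of 3 libraries also arises by chance in part of the genes. Its share among all genes tested was not counted, so whether it was more common here than elsewhere was not tested. *Col19a1* (381, 513 and 502) overlapped with the controls, and *Col26a1* (73, 78 and 75) was lower than all of them.

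The summed markers of tenocytes, the fibroblasts of tendon, had the same order of libraries. Their signal over 8 genes was 61, 1132 and 428 in Sirt6mKO replicates 1 to 3 and 52, 76 and 52 in the controls. *Thbs4* led the list with 14, 508 and 191 against 15, 16 and 7, followed by *Fmod* with 11, 481 and 163 against 11, 17 and 7. The markers *Tnmd* (1, 19 and 13 against 1, 0 and 0) and *Kera* (0, 40 and 15 against 1, 0 and 0) were at or near 0 in the controls and in Sirt6mKO replicate 1. *Comp* and *Chad* had the same order. *Scx* did not, with 33, 27 and 24 against 16, 23 and 23, and *Mkx* had lower values in Sirt6mKO, with 1, 10 and 6 against 6, 15 and 13 (log2 fold change -1.12 ± 0.61 SE, limma adjusted p = 0.37). None of the 8 markers passed the adjusted p of limma, with 4 at an unadjusted p under 0.05 and 0 by limma voom. *Kera*, *Tnmd*, *Chad* and *Comp* (4 of the 8) were tested only through their Sirt6mKO values. Fibroblast markers, 9 genes led by *Col3a1*, summed to 8685 to 10401 in Sirt6mKO and 6496 to 10047 in the controls. *Col3a1* made up most of this sum. Of the 6 that were tested, 2 (*Col1a1* and *Pdgfra*) rose at the adjusted p, where 2.64% of all genes rose. *Pdgfra* had 14, 22 and 38 against 9, 4 and 2 (log2 fold change 2.16 ± 0.50 SE, limma adjusted p = 0.027), a call that stood without control replicate 1 only (adjusted p = 0.061, 0.13 and 0.13 without Sirt6mKO replicates 1 to 3, 0.081 and 0.066 without control replicates 2 and 3). *Ly6a*, which encodes the Sca1 antigen removed in the sort, was between 0 and 2. Markers of myofibers, 10 genes led by *Ttn*, summed to 2643, 2961 and 1350 in Sirt6mKO and to 993 to 1165 in the controls, in an order that put replicate 3 last. Of them 3 (*Ttn*, *Acta1* and *Mylpf*) rose at the adjusted p, where 2.64% of all genes rose. Their log2 fold changes were 0.90 ± 0.17, 1.71 ± 0.42 and 2.15 ± 0.45 SE (limma adjusted p = 0.01, 0.035 and 0.018). Without 1 library, the call stood in 4 of 6 fits for *Ttn*, 1 for *Acta1* and 3 for *Mylpf*. Limma voom called 1 of the 10 markers. An unadjusted p under 0.05 was reached by 8 of the 10, against 2577 of the 14227 genes tested in either direction. Sums were 390 to 463 against 477 to 579 for 7 endothelial markers, led by *Tek* and with *Cldn5* at 0 in all but 1 library, and 4393 to 5451 against 2893 to 3932 for 8 mural markers, led by *Notch3*. *Tek* made up most of the endothelial sum and was lower in Sirt6mKO (log2 fold change -0.35 ± 0.13 SE, limma adjusted p = 0.16). *Pecam1* and *Vwf*, also tested, had higher values (1.05 ± 0.51 and 0.63 ± 0.40, adjusted p = 0.3 and 0.46). *Notch3* (4104, 4873 and 3688 against 3289, 2967 and 2112) made up most of the mural sum. The only mural marker past the adjusted p, *Mcam*, fell. It had 57, 51 and 66 against 93, 149 and 111 (log2 fold change -0.99 ± 0.19 SE, limma adjusted p = 0.012), a call that stood in 3 of 6 fits without 1 library. *Abcc9* was also lower in every Sirt6mKO library than in any control. The sums were 291 to 371 against 157 to 348 for 7 Schwann cell markers, led by *Scn7a*, and 37 to 77 against 36 to 65 for 3 immune markers, led by *Cd68*. The part of these cells in the results for *Col6a3*, *Col12a1*, *Col14a1* and *Col22a1* was not tested. In Sirt6mKO replicate 1, where the tenocyte sum of 61 was within the range of the controls, *Col6a3* was at 15 (highest control 12), *Col12a1* at 235 (203), *Col14a1* at 3 (2) and *Col22a1* at 1 (1).

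**Figure D3:**
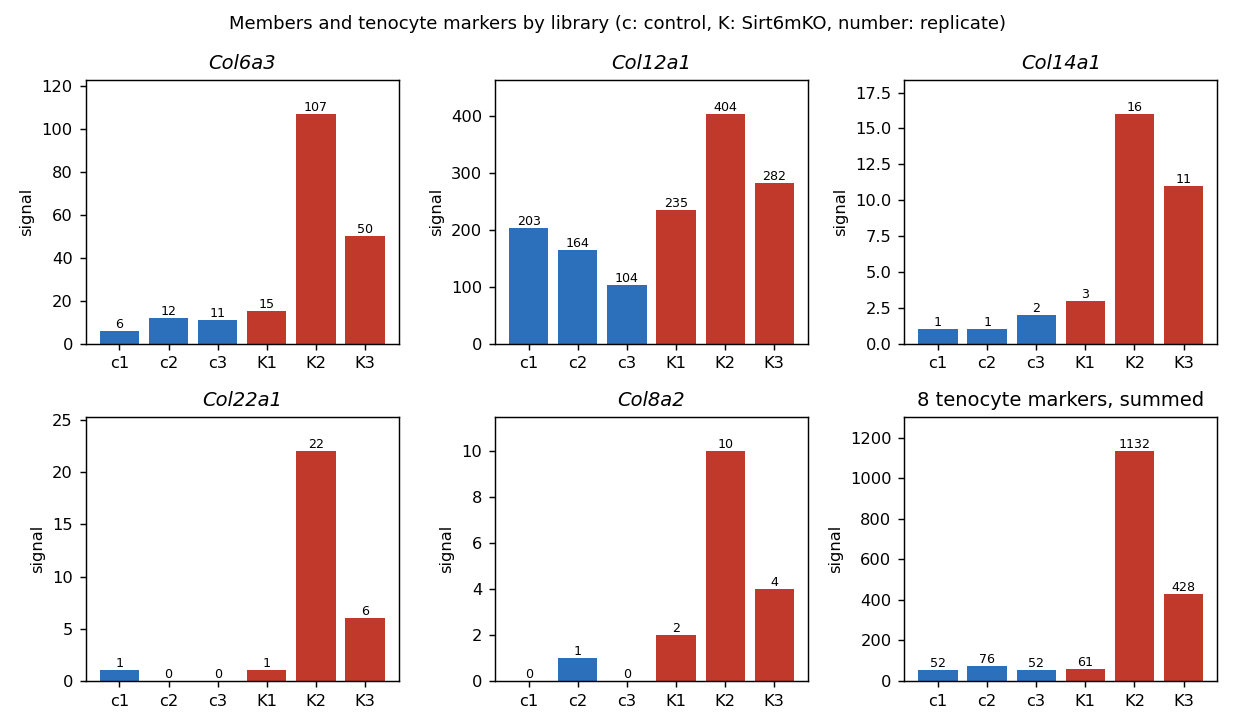
Signal (y, from 0) of *Col6a3*, *Col12a1*, *Col14a1*, *Col22a1* and *Col8a2* and the summed signal of 8 tenocyte markers in control replicates (c1 to c3, blue) and Sirt6mKO replicates (K1 to K3, red). In each panel Sirt6mKO replicate 2 is highest and replicate 3 next, and the tenocyte sum of replicate 1 (61) is near the controls (52 to 76) while *Col12a1* of replicate 1 (235) is above all of them. *Col4a3*, *Col19a1* and *Col26a1*, not shown, have the same order of Sirt6mKO replicates. Only collagen genes with this order are plotted, so the panels do not show how common it is.

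*Col26a1* was the only one of the 23 genes that fell at the adjusted p. It encodes a small secreted protein with short collagen stretches. The signal of *Col26a1* (ENSMUSG00000004415, chr5:136741759-136883209) came to 73, 78 and 75 in Sirt6mKO replicates 1 to 3 against 170, 104 and 113, without overlap. The Sirt6mKO libraries hardly differed from each other (75.3 ± 2.52, SD, n = 3), whereas the controls did (129.0 ± 35.8). The log2 fold change was -0.73 ± 0.19 SE with a limma adjusted p of 0.042. The call was lost with upper quartile scaling (0.094) and without any library other than control replicate 2, with values of 0.18, 0.13 and 0.11 for Sirt6mKO replicates 1 to 3, 0.11 for control replicate 1 and 0.055 for control replicate 3. *Col7a1*, the anchoring fibril chain of skin, ranged from 26 to 50 with overlapping groups. *Col24a1* (at most 9) and *Col28a1* (at most 4) were not tested.

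*Col8a1*, a chain of the hexagonal lattice known from vessels and the cornea, had a signal of 35, 31 and 42 in Sirt6mKO and of 17, 12 and 29 in the controls. The groups were separate, if narrowly (31 against 29), with a log2 fold change of 0.94 ± 0.31 SE (limma adjusted p = 0.13). Without control replicate 3, the highest control, the change was 1.26 with an adjusted p of 0.032. Its partner chain *Col8a2* was too low for the test, with 2, 10 and 4 against 0, 1 and 0, at least 1.42-fold higher than a floor of 3 reads per control library. *Col10a1*, a marker of hypertrophic cartilage, stayed at or below 4 and was not tested. Of the transmembrane chains, *Col17a1*, a hemidesmosome component, had 82, 77 and 69 in Sirt6mKO libraries against 68, 63 and 38, just separate (log2 fold change 0.47 ± 0.22 SE, limma adjusted p = 0.29, and 0.21 without control replicate 3). *Col23a1* ranged from 2 to 7, and *Col13a1*, known from the neuromuscular synapse, and *Col25a1*, which is needed for muscle innervation, had at most 3.

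The chains of 1 family can be set against each other within a library, where the size factor drops out. Per kilobase of merged exons, *Col4a2* stood at 33.9 to 36.8% of *Col4a1* in Sirt6mKO and at 29.7 to 37.3% in the controls. The lowest ratio was that of control replicate 3, and *Col4a1* itself ranged from 3078 to 5665 in the controls. *Col6a2* stood at 26.3 to 29.8% of *Col6a1* in Sirt6mKO and at 18.1 to 25.0% in the controls. *Col18a1* stood at 15.1 to 18.4% of *Col15a1* against 11.3 to 13.4%, and *Col4a5* at 0.387 to 0.593% of *Col4a1* against 0.65 to 0.961%. For these 3 ratios the groups did not overlap (exact two-sided permutation p = 0.1 each, the smallest that 3 libraries against 3 allow, and 0.23 when adjusted over the 7 ratios computed). The ratio of *Col4a5* rested on 22, 21 and 28 reads of this gene in Sirt6mKO replicates 1 to 3 and on 40, 34 and 10 in the controls. Its lowest control value was that of control replicate 3, with 10 reads. *Col6a3* reached 0.24 to 1.82% of *Col6a1* in Sirt6mKO and 0.11 to 0.25% in the controls, which overlapped (exact two-sided permutation p = 0.2, adjusted 0.35), and *Col6a6* reached 2.78 to 5.79% against 1.27 to 4.34%. Lengths set the size of these percentages, but not the comparison between groups: with the longest transcript of each gene, *Col6a2* stood at 41.8 to 47.3% against 28.7 to 39.7% of *Col6a1*.

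**Figure D4:**
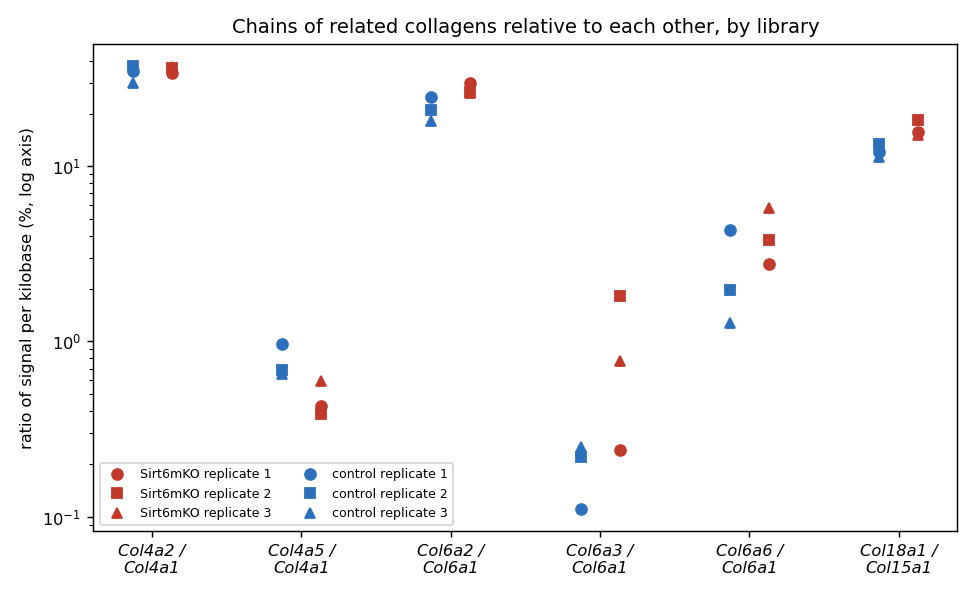
Ratio of the signal per kilobase of 2 chains in percent (y, log axis) for 6 pairs (x) in each Sirt6mKO (red) and control library (blue), with the symbol shape giving the replicate number. The ratio of *Col4a2* to *Col4a1* lies between 29.7 and 37.3% in all 6 libraries, whereas the ratios of *Col6a2* to *Col6a1* and of *Col18a1* to *Col15a1* are higher, and that of *Col4a5* to *Col4a1* lower, in every Sirt6mKO library than in any control.

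The genes that make, modify, anchor and bind collagens were counted at the adjusted p, at which 2.64% of all genes rose and 1.88% fell. An unadjusted p under 0.05, given beside these counts, was reached by 2577 of the 14227 genes tested in either direction. *P4ha3* of the folding list, *Smoc2* of the basement membrane list and *Itga2* of the receptor list had a control mean under 5. They were tested only through their Sirt6mKO values and could enter the counts only by being higher. Of the 20 tested genes for folding and modification of the chains, *P3h2* fell and none rose, with 3 higher at an unadjusted p under 0.05 and 1 call in total by limma voom. *P3h2* encodes a prolyl 3-hydroxylase that acts on type IV collagen. It had 57, 54 and 53 in Sirt6mKO libraries against 98, 166 and 131 (log2 fold change -1.22 ± 0.19 SE, limma adjusted p = 0.0036), and the call stood in all 17 alternatives. The most abundant genes of the list were *Serpinh1*, the collagen chaperone, with 1003, 735 and 933 against 996, 1423 and 998, and *P4hb*, a subunit of prolyl 4-hydroxylase, with 969, 841 and 946 against 972, 1175 and 894, neither of which passed. Of the 10 tested genes for cross-linking and propeptide processing none passed, with 5 at an unadjusted p under 0.05 and 1 called by limma voom. The peroxidase *Pxdn*, which links collagen IV by sulfilimine bonds, led that list by signal with 1069 to 1379 in Sirt6mKO and 984 to 1265 in the controls, ahead of the procollagen protease *Bmp1* with 742 to 964 against 557 to 829.

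Among the 16 tested basement membrane partners of collagen IV, 5 rose and none fell, with 1 lower at an unadjusted p under 0.05. The median log2 fold change of the list was 0.59. *Smoc1*, a secreted calcium-binding protein, rose from 25, 9 and 18 to 71, 72 and 61 (log2 fold change 2.01 ± 0.31 SE, limma adjusted p = 0.0035). *Nid1*, the nidogen that joins laminin to collagen IV, had 999, 897 and 1370 in Sirt6mKO against 679, 227 and 183 (1.81 ± 0.36, adjusted p = 0.013), and its relative *Nid2* had 304, 329 and 351 against 205, 204 and 143 (0.85 ± 0.15, adjusted p = 0.0068). Both nidogens were higher in every Sirt6mKO library, *Nid1* with control replicate 1 far above the other controls. The laminin chains *Lama5* (471, 447 and 345 against 237, 207 and 152, 1.09 ± 0.17, adjusted p = 0.0035) and *Lamb2* (873, 949 and 953 against 625, 668 and 543, 0.60 ± 0.11, adjusted p = 0.0091) rose as well. The call of *Nid1* was lost without Sirt6mKO replicate 1, 2 or 3 (adjusted p = 0.082, 0.057 and 0.056), without control replicate 2 (0.072) and with robust empirical Bayes (0.23), and that of *Lamb2* without Sirt6mKO replicate 2 (0.057). The partner with the most signal was *Hspg2*, the perlecan core protein, with 5310, 6223 and 5560 against 4667, 4269 and 2922, separate but without a call (log2 fold change 0.55 ± 0.16 SE, limma adjusted p = 0.084). *Lamc1* came next by signal with 3236 to 4519 against 3501 to 4596. Per kilobase of merged exons, *Sparc* was highest with a mean of 724.7 over the 6 libraries, ahead of *Lamc1* with 489.6 and *Hspg2* with 337.3.

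Of the 13 tested genes on the list of matrix receptors, 2 integrin subunits rose and none fell, with 2 lower at an unadjusted p under 0.05. *Itga1*, whose integrin binds collagen IV, had a signal of 51, 78 and 92 in Sirt6mKO and of 41, 19 and 34 in the controls (log2 fold change 1.23 ± 0.29 SE, limma adjusted p = 0.033). *Itga11*, a subunit of a receptor for fibrillar collagens, had 27, 19 and 18 against 6, 6 and 4 (1.81 ± 0.36, adjusted p = 0.013). The call of *Itga1* was lost with no filter (0.062) and without any library but control replicate 1 (adjusted p = 0.053, 0.16 and 0.13 for Sirt6mKO replicates 1 to 3, 0.099 and 0.052 for control replicates 2 and 3), and that of *Itga11* without Sirt6mKO replicate 1 (0.10) or 2 (0.065). The genes of this list with the most signal were *Dag1*, dystroglycan, with 6342 to 6922 against 6970 to 8850, and *Itgb1* with 1661 to 1723 against 1563 to 1888. *Calcr*, which MuSCs use as a receptor for collagen V, had 477 to 601 against 512 to 731. Of 7 matrix organisers, *Bgn* and *Tgfbi* rose and none fell, with 0 lower at an unadjusted p under 0.05 and 2 calls in total by limma voom. *Bgn*, the biglycan core protein, which binds collagen VI, rose from 1081, 604 and 758 to 1894, 1500 and 1609 (1.07 ± 0.18, adjusted p = 0.0050, and 0.052 without Sirt6mKO replicate 1). *Tgfbi*, another partner of collagen VI, rose from 39, 34 and 25 to 52, 93 and 85 (1.19 ± 0.25, adjusted p = 0.019), a call lost without Sirt6mKO replicate 2 or 3 (0.13 and 0.079) and without control replicate 2 or 3 (0.053 and 0.054). *Tnxb* and *Fbn1* had the most signal of these genes, with 2264 to 2931 against 1954 to 3208 and 1875 to 2562 against 1871 to 2744. Per kilobase of merged exons, the means over the 6 libraries were 209.2 for *Tnxb*, 203.5 for *Bgn* and 193.4 for *Fbn1*. By the longest transcript *Bgn* was highest, with 465.5 against 209.2 for *Tnxb* and 196.0 for *Fbn1*.

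For the 10 fibrillar chains, all of which were tested, 2 rose and none fell, with 0 lower at an unadjusted p under 0.05 and 2 calls in total by limma voom. *Col2a1* and *Col11a1* had a control mean under 5 and were tested only through their Sirt6mKO values, so they could enter these counts only by being higher. *Col1a2* had a signal of 782, 1299 and 1162 in Sirt6mKO and of 173, 63 and 65 in the controls (log2 fold change 3.55 ± 0.31 SE, limma adjusted p = 8.5e-05). *Col1a1* had 420, 1063 and 645 against 487, 128 and 81, with overlapping groups (1.94 ± 0.50, adjusted p = 0.047, and 0.10 to 0.23 without Sirt6mKO replicate 1, 2 or 3 or control replicate 2 or 3). The fibrillar genes with the highest signal, *Col3a1* (6685 to 8461 against 5795 to 8595) and *Col5a1* (1808 to 2005 against 1291 to 2046), overlapped between the groups, as did *Col4a1* and *Col15a1*.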

How the data were processed

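Sorted MuSCs of 3 Sirt6mKO and 3 control samples, grouped by their titles, gave 1 library each from 1 to 5 ng of RNA. No source says which samples are separate animals, so p-values measure the spread between samples. The labels name SMARTer stranded libraries after RiboGone depletion, the methods RiboMinus with an Ion kit. Per the methods, reads were aligned to mm10 with STAR, counted with featureCounts without those on several genes and tested with DESeq2 (2.7.10a, 2.0.2 and 1.30.1 in the submitters' processing notes). Use of strand is not given in the sources used here, and *Col9a3* and *Col4a3* share 6.07 and 5.65% of their exons with a gene on the opposite strand.

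The deposited signal values, for which no unit is given, were read from their spacing as reads that the authors had scaled by 1 size factor per library and rounded, and not as counts. This is an inference, on which the rebuilt reads (1267027 to 3209958 per library) and the floor of 3 reads rest, and the floor covers counting error only. Positions matched GENCODE M21 (GRCm38) for all 32 genes.

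Limma-trend (limma 3.58.1, R 4.3.3) was run on log2(signal + 1) without a block for the 14227 genes whose mean signal reached 5, with Benjamini-Hochberg adjustment over all of them. Fold changes on this scale understate changes of low genes. Collagen genes were counted at an adjusted p of at most 0.05 and 2-fold, related lists at the adjusted p alone. Values of each library were printed for genes past the adjusted p, with separate groups, among the 8 highest per kilobase or in a head-to-head pair, and in related lists for genes past the adjusted p and the 2 with the highest signal. Genes and lists were chosen with earlier results of these data known, and *Col3a1*, *Col1a1*, *Dcn* and *Calcr* stand in more than 1 list. *Emcn*, *Ptprc* and *C1qa* were not analysed here. Alternatives were other scalings, filters, pseudocounts and thresholds, robust empirical Bayes, limma voom, a replicate block, transcript length and leaving out each library. Non-overlap without control replicate 3 was added after seeing the data. Python 3.11.15, numpy 2.4.6, pandas 2.3.3 and matplotlib 3.10.9 were used.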

Additional observations from a re-analysis of the deposited data

How the results depend on the processing

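The count of 1 collagen gene higher at both thresholds was 2 with upper quartile scaling and 0 with limma voom, robust empirical Bayes, no filter, a minimum mean of 20 or a pseudocount of 0.5. Without a minimum fold change it was 3 higher and 1 lower at an adjusted p of 0.05, and 5 higher and 1 lower at 0.1. Leaving out 1 library gave 0 to 2 higher and 0 lower. In the fits without 1 library, the 4 genes called at the adjusted p (*Col6a2*, *Col6a3*, *Col12a1* and *Col26a1*) each passed in 1 of 6. In those fits the log2 fold change ranged from -0.02 to 0.42 for *Col4a1*, from -0.05 to 0.51 for *Col4a2*, from -0.18 to 0.25 for *Col15a1* and from -0.25 to 0.36 for *Col16a1*, negative without control replicate 3 in each case. For *Col19a1* it ranged from -0.16 to 0.09, positive without Sirt6mKO replicate 1 (0.09) or control replicate 2 (0.05) and with upper quartile scaling (0.04). Without control replicate 3, 10 genes were separate and higher and 3 separate and lower. The cause was not tested. With the longest transcript, levels per kilobase were 468.0 for *Col15a1*, 199.3 for *Col6a2*, 86.9 for *Col19a1*, 68.8 for *Col18a1*, 36.7 for *Col26a1* and 23.1 for *Col16a1*. Upper quartile scaling moved the median of all genes by 0.09 on the log2 scale, the other settings by at most 0.02.

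In the lists, fibrillar chains had 1 higher with robust empirical Bayes, no filter, a minimum mean of 20 and a pseudocount of 0.5, and receptors 1 with no filter and a minimum mean of 20. At an adjusted p of 0.1, 1 folding gene, 2 cross-linking genes and 8 basement membrane partners were higher, and 1 cross-linking gene was with upper quartile scaling, robust empirical Bayes and voom. Leaving out 1 library gave 1 to 2 fibrillar chains, 0 folding, 0 to 1 cross-linking, 3 to 9 basement membrane, 0 to 3 receptor and 1 to 2 matrix organiser genes higher, and 1 folding and 0 to 1 cross-linking genes lower, with 0 lower in the other lists.

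Deviations of same-numbered libraries from their group means correlated at 0.023, 0.066 and 0.188, so the numbers were not taken as pairs. With a replicate block, 1 collagen gene was higher and 0 lower at both thresholds, and 1 cross-linking gene, 3 fibrillar chains, 7 basement membrane partners, 3 receptors and 2 matrix organisers were higher, with 814 genes past the adjusted p in place of 643. At 3 reads or fewer, differences in the lowest genes were not detectable.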
